A study of Mus musculus with 18 samples.

Results

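The splicing regulators of the SR and hnRNP families were followed through the counts of read 3′ ends in 4T1 cells with and without Snord67. The set held 38 genes chosen by name, of which 12 were SR proteins or their relatives, 20 were hnRNP proteins or polypyrimidine tract-binding proteins, and 6 were regulators typical of certain tissues (Mbnl1, Mbnl2, Esrp1, Esrp2, Rbfox2 and Celf1). Of these, 37 were listed in the table, out of 19736 gene names. The rule that picks them uses gene names alone.

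4T1 is a mouse mammary carcinoma line, here transduced with a lentivirus for mCherry and Renilla luciferase and kept in puromycin. The 4T1 WT cells were compared with Snord67KO-1 and Snord67KO-2, each of which is 1 clone grown from a single cell after CRISPR/Cas9 deletion of the small nucleolar RNA Snord67 with paired guides. Ribose oxidation sequencing (RibOxi-seq) was run on poly(A)-enriched RNA in 3 biologic replicates per genotype. The 9 oxidized libraries were analysed, while the control libraries were not analysed here. In this assay, oxidation removes fragment ends that lack a 2′-O-methyl group, and the 3′ ends that remain are counted at each position.

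SR proteins bind exonic enhancers through RNA recognition motifs and recruit spliceosome components through domains rich in arginine and serine. hnRNP proteins coat nascent RNA, and many of them repress the exons near which they bind. Many genes of both groups control their own output through ultraconserved exons or introns whose inclusion sends the transcript to nonsense-mediated decay (NMD). U6 snRNA, the RNA that Snord67 guides for methylation, lies at the catalytic center of the spliceosome.

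The libraries held 212463 to 737219 counts. The locus of Snord67 itself (GRCm38, chromosome 2, 91596070 to 91596180) had 1 count, in Snord67KO-1 replicate 1, so that these libraries of poly(A) RNA do not check the genotype labels. The 6 epithelial markers summed to between 346 and 573 CPM (counts for every 1000000 counts in a library) in 4T1 WT, to between 824 and 899 CPM in Snord67KO-1, and to between 640 and 732 CPM for Snord67KO-2. The sum was carried by Krt8 and Krt18, while the means of Epcam (30.2 and 16.1 CPM), Cdh1 (90.3 and 51.5 CPM) and Cldn4 (75.8 and 0.98 CPM) were lower in Snord67KO-1 than in 4T1 WT. The 4 mesenchymal markers summed to between 432 and 604 CPM, between 2489 and 2678 CPM and between 1163 and 1392 CPM in the same order. Vim and Fn1 carried this sum. The means of Cdh2 (0.45, 4.62 and 0 CPM) and Zeb1 (0, 7.46 and 1.81 CPM) were low in all genotypes. The part of these differences in the results below was not tested. Leukocyte, endothelial and adipocyte markers summed to at most 16.3, 28.2 and 1.57 CPM, and Adipoq was at 0. 4T1 WT replicate 2 stood apart in the positions that the table marks as mispriming. These held 34.2% of its counts in the splicing regulators, against 2.06% to 14.1% in the other libraries, and they were left out of gene totals.

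The gene totals of the set rested on many positions with few counts. The members had 13513 unmarked counts at 11000 positions, and 85.8% of these positions had 1 count over all 9 libraries. A gene total therefore combines the amount of RNA with the share of fragment ends that withstood oxidation, and these cannot be told apart in the oxidized libraries. Likewise, fewer cells with a transcript and less of it per cell cannot be told apart. Of the 38 members, 33 reached the minimum of 10 counts in 3 libraries and were tested, comprising 11 SR proteins, 17 hnRNP proteins and 5 of the tissue-typical regulators. Srsf4 and Hnrnph3 had 50 counts each, Esrp2 had 7, Hnrnpa3 had 1, and Hnrnpa1 had no row.

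The missing Hnrnpa1 was traced to the names in the table. Hnrnpa1 encodes one of the most abundant hnRNP proteins, a repressor of exons that competes with Srsf1. Its locus (chromosome 15, 103240432 to 103246692, plus strand) held 871 positions, of which 673 were named Gm10052 and 198 were named Gm5643, a pair of processed pseudogenes that are annotated on other chromosomes. In the same way, 94 positions inside Hnrnpa3 (chromosome 2, 75659261 to 75669407) carried the name of the pseudogene Gm6793. The loci were examined after the values were seen. Read by locus, Hnrnpa1 had 898 unmarked counts, of which 2.90% lay in introns. Its level was 134, 117 and 141 CPM in 4T1 WT, 243, 199 and 255 CPM in Snord67KO-1, and 132, 198 and 232 CPM in Snord67KO-2. All libraries of Snord67KO-1 were above all of 4T1 WT, while the lowest library of Snord67KO-2 lay within the range of 4T1 WT. The log2 change was 0.56 ± 0.19 (SE) in Snord67KO-1 (edgeR adjusted p = 0.0388) and 0.56 ± 0.19 in Snord67KO-2 (edgeR adjusted p = 0.112). Its average over both clones was 0.56 ± 0.17 (edgeR adjusted p = 0.0332). How reads that also match the pseudogenes were placed is not stated. Hnrnpa3 by locus had 54 unmarked counts, with means of 8.0 ± 1.67 CPM (SD, n = 3) in 4T1 WT, 15.2 ± 4.63 CPM in Snord67KO-1 and 9.35 ± 6.96 CPM in Snord67KO-2.

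Per length of exon, hnRNP genes led the set, with the length taken over exons of all annotated transcripts, noncoding ones included. Exon counts per kilobase of exon sequence, averaged over the 9 libraries, were highest among members matched by name for Hnrnpf with 45.4 ± 9.69 CPM per kb (SD over libraries). Hnrnpa1 taken by locus had 56.7 ± 16.5 CPM per kb, a spread that overlapped that of Hnrnpf. Hnrnpf was followed by Hnrnpk with 33.9 ± 5.57, Hnrnpa2b1 with 33.7 ± 7.31, Hnrnph1 with 27.8 ± 4.41 and Hnrnpc with 27.0 ± 3.63 CPM per kb. Hnrnpk and Hnrnpa2b1 did not differ beyond their spread, and neither did Hnrnph1 and Hnrnpc. Srsf5, at 26.9 ± 2.17 CPM per kb, was the highest SR gene and lay within the spread of Hnrnpc. The order depends on the transcripts used for the length. On exons of protein-coding transcripts alone, counts per kb pooled over libraries were 399 for Hnrnpa2b1 and 260 for Hnrnph1. They were 240 for Srsf5, 232 for Hnrnpk and 216 for Hnrnpf. Among the genes tested, Ptbp2, the paralog of Ptbp1 that is typical of neurons, was lowest at 1.77 ± 1.04 CPM per kb, and Ptbp1 stood at 5.70 ± 1.73 CPM per kb. Esrp1, which directs epithelial exons, had 5.38 ± 0.95 CPM per kb, while its paralog Esrp2 had 0.22 ± 0.35 CPM per kb.

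**Figure D1:**
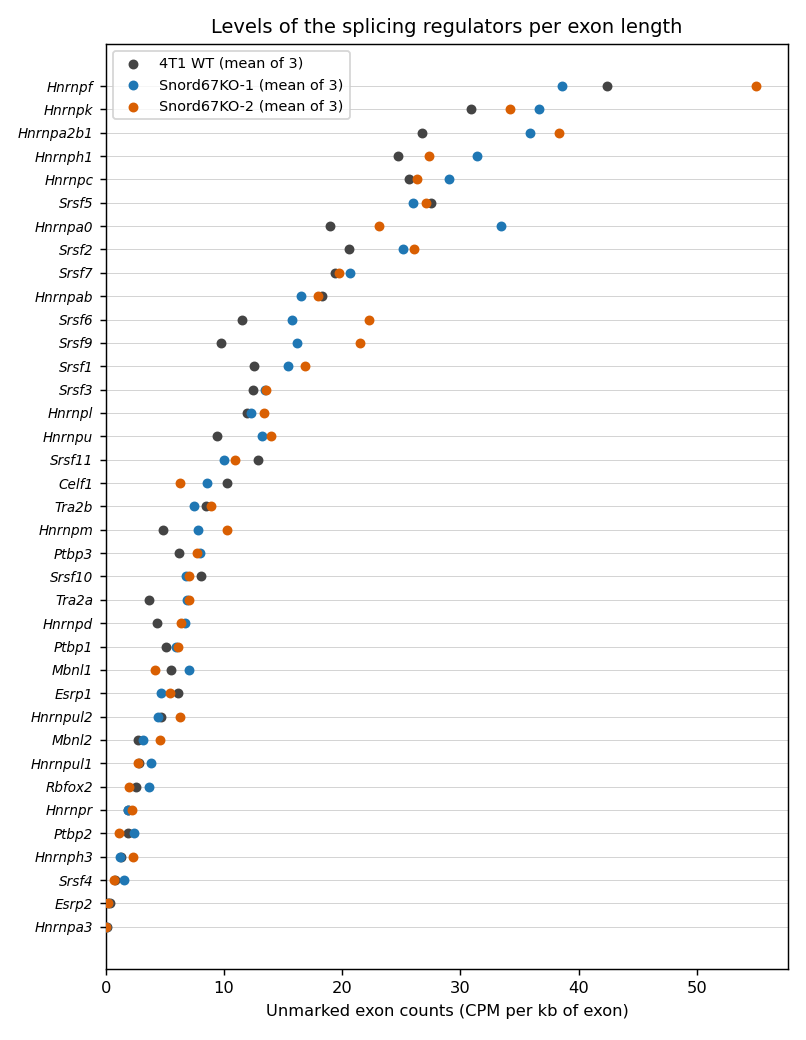
Exon counts of the 37 named members per kilobase of exon (x axis, CPM per kb), with 1 point for the mean of the 3 libraries of each genotype. The points run from Hnrnpf at the top to Hnrnpa3 at the bottom, and Hnrnpa0, Srsf6 and Srsf9 show wide gaps between genotypes.

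Whether the level of these regulators differed between genotypes was asked of the gene totals. In the average of both clones 1 of 33 members was called, Srsf6, which was higher. Of all 5748 genes tested, 12.0% were called there, 6.61% higher and 5.41% lower. In Snord67KO-1 the only member called was Srsf11, which was lower, beside 20.2% of all genes (11.5% higher, 8.66% lower). In Snord67KO-2 the members called were Srsf6 and Srsf9, both higher, beside 3.98% of all genes (3.06% higher, 0.922% lower). In Snord67KO-2 against Snord67KO-1 they were Hnrnpf and Srsf6, both higher in Snord67KO-2, beside 6.38% of all genes (2.84% higher, 3.55% lower). With libraries scaled by their totals alone, the split over all genes moved from 661 higher and 498 lower to 834 and 159 in Snord67KO-1, from 163 and 204 to 45 and 404 between the clones, and from 380 and 311 to 299 and 143 in the average. At an unadjusted p under 0.05, 8, 7, 8 and 9 members passed in these comparisons, against 26.8%, 32.8%, 18.2% and 20.6% of all genes. CPM values are relative to library totals, whereas log2 changes are after TMM scaling (factors from 0.782 to 1.27), so a difference in CPM and a log2 change need not be of one size. DESeq2 called no member in any of the 4 comparisons, with 2, 1, 5 and 2 members at an unadjusted p under 0.05.

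Srsf6 (GRCm38, chromosome 2, 162931528 to 162937121, plus strand), an SR protein that binds exonic enhancers, had more CPM in every library of both clones than in any library of 4T1 WT. Its totals were 57.0, 59.5 and 51.2 CPM in 4T1 WT, 78.7, 75.2 and 75.7 CPM in Snord67KO-1, and 118, 117 and 92.1 CPM in Snord67KO-2. The 3 genotypes did not overlap, with 4T1 WT lowest and Snord67KO-2 highest. On the log2 scale after TMM scaling, Srsf6 rose by 0.98 ± 0.22 (SE) in Snord67KO-2 (edgeR adjusted p = 0.0131) and by 0.59 ± 0.19 in the average of both clones (edgeR adjusted p = 0.0451). In Snord67KO-1 alone its log2 change was 0.19, which did not pass. Snord67KO-2 was above Snord67KO-1 by 0.79 ± 0.21 (edgeR adjusted p = 0.0302). The Snord67KO-2 call was lost when Snord67KO-2 replicate 1 (adjusted p = 0.0660) or replicate 2 (adjusted p = 0.0924) was left out, and the DESeq2 adjusted p was 0.0563. The call of the average was lost without any 1 of 8 libraries, with 4T1 WT replicate 1 giving the largest adjusted p of 0.132, and remained without Snord67KO-2 replicate 3. The difference between the clones was lost without any 1 of 5 libraries, the 3 of Snord67KO-1 and replicates 1 and 2 of Snord67KO-2, with adjusted p between 0.0733 and 0.147.

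Srsf9 (chromosome 5, 115327177 to 115333080, plus strand), a small SR protein, gave 13.6, 15.7 and 19.2 CPM in 4T1 WT, 22.3, 24.4 and 36.4 CPM in Snord67KO-1, and 32.9, 40.7 and 37.8 CPM in Snord67KO-2. Every library of either clone was above every library of 4T1 WT, and the clones overlapped each other. Srsf9 rose by 1.24 ± 0.35 on the log2 scale in Snord67KO-2 (edgeR adjusted p = 0.0499), and its average over both clones was 0.88 ± 0.29 (edgeR adjusted p = 0.0553). With 122 counts over all libraries, this call lay at the threshold and was lost in 13 of 19 alternatives, where adjusted p reached 0.211.

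Srsf11, an SR-related protein found with splicing factors in nuclear speckles, was the member that fell. It had 106, 111 and 125 CPM in 4T1 WT, 86.1, 87.4 and 100.5 CPM in Snord67KO-1, and 89.4, 117 and 87.4 CPM in Snord67KO-2. The libraries of Snord67KO-1 all lay below those of 4T1 WT, whereas Snord67KO-2 overlapped both. Srsf11 fell by 0.58 ± 0.20 on the log2 scale in Snord67KO-1 (edgeR adjusted p = 0.0479). The call was lost without 4T1 WT replicate 3, any library of Snord67KO-1 or Snord67KO-2 replicate 1, with adjusted p up to 0.203. Srsf10, a splicing repressor when dephosphorylated, had 61.0, 79.8 and 60.8 CPM in 4T1 WT, 60.9, 34.6 and 65.5 CPM in Snord67KO-1, and 51.8, 62.4 and 59.1 CPM in Snord67KO-2. Its log2 change of −0.57 ± 0.22 in Snord67KO-1 did not pass (edgeR adjusted p = 0.0757), and the libraries overlapped.

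Hnrnpf, which binds runs of G near splice sites, differed between the clones. Its totals were 146, 124 and 136 CPM in 4T1 WT, 135, 89.5 and 138 CPM in Snord67KO-1, and 141, 189.9 and 179.6 CPM in Snord67KO-2. The libraries of Snord67KO-2 all lay above those of Snord67KO-1, and both clones overlapped 4T1 WT. Snord67KO-2 was above Snord67KO-1 by 0.80 ± 0.20 on the log2 scale (edgeR adjusted p = 0.0175). This call was lost without Snord67KO-1 replicate 1 or 2 or Snord67KO-2 replicate 2 or 3, with adjusted p up to 0.108, and with library totals alone the difference was 0.42 (edgeR adjusted p = 0.264). Of the 678 unmarked counts of Hnrnpf, 43 lay in exons of other genes that overlap it, and the counts carry no strand. The same limit holds for other members, among them Srsf2 (125 of 337 counts) and Hnrnpab (54 of 250 counts).

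Hnrnpm, a splicing regulator that binds GU-rich motifs and is known for a part in epithelial-mesenchymal transition, came next by p. It had 67.8, 39.1 and 41.6 CPM in 4T1 WT, 62.3, 59.0 and 94.6 CPM in Snord67KO-1, and 75.3, 94.9 and 96.9 CPM in Snord67KO-2, the latter all above 4T1 WT. Its log2 change of 0.88 ± 0.25 in Snord67KO-2 just missed the threshold (edgeR adjusted p = 0.0552). Hnrnpa0, a gene with a single exon, had 52.9, 57.9 and 41.6 CPM in 4T1 WT, 90.5, 73.2 and 105 CPM in Snord67KO-1, and 56.5, 51.5 and 78.0 CPM in Snord67KO-2. Its log2 change of 0.56 ± 0.20 in Snord67KO-1 missed the threshold as well (edgeR adjusted p = 0.0567), although Snord67KO-1 and 4T1 WT did not overlap.

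**Figure D2:**
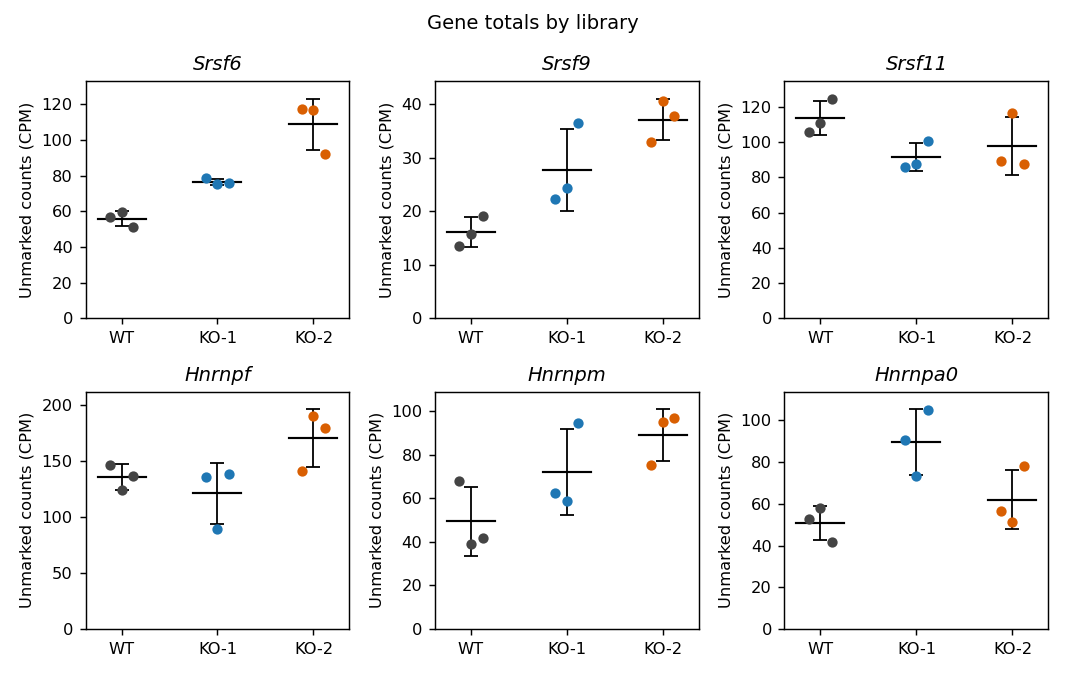
Gene totals over unmarked positions (y axis, CPM) of Srsf6, Srsf9, Srsf11, Hnrnpf, Hnrnpm and Hnrnpa0 in the 3 libraries of each genotype, shown as points with the mean (line) and SD (bar). The 3 groups of Srsf6 are separate, from 51.2 CPM in the lowest 4T1 WT library to 118 CPM in the highest Snord67KO-2 library, and the Snord67KO-1 points of Srsf11 all lie below 4T1 WT.

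The other abundant hnRNP genes did not pass in either clone. Hnrnpk, which binds C-rich RNA, had 232, 225 and 155 CPM in 4T1 WT, 217, 216 and 287 CPM in Snord67KO-1, and 207, 212 and 253 CPM in Snord67KO-2, with all genotypes overlapping. Hnrnpa2b1, which is also a reader of modified RNA in the nucleus, had 210.2, 178 and 162 CPM in 4T1 WT, 236, 199 and 297 CPM in Snord67KO-1, and 221, 290.2 and 272 CPM in Snord67KO-2. The Snord67KO-2 libraries of Hnrnpa2b1 were all above 4T1 WT, with a log2 change of 0.56 ± 0.18 (edgeR adjusted p = 0.0934). Hnrnph1, the close relative of Hnrnpf, had 171, 155 and 123 CPM in 4T1 WT, 175, 173 and 211 CPM in Snord67KO-1, and 146, 165 and 184 CPM in Snord67KO-2, so that the CPM of Snord67KO-1 all lay above 4T1 WT. Its log2 change was 0.06 in Snord67KO-1 and 0.19 in Snord67KO-2. Hnrnpc, which binds runs of U in nascent RNA, had 141, 90.8 and 123 CPM in 4T1 WT, 120.2, 128 and 147 CPM in Snord67KO-1, and 122, 106 and 113 CPM in Snord67KO-2, and the genotypes overlapped.

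Among the tissue-typical regulators no member was called. Celf1, which promotes the decay of mRNA with GU-rich elements, had 69.2, 128 and 84.8 CPM in 4T1 WT, 80.2, 97.6 and 53.9 CPM in Snord67KO-1, and 32.9, 67.8 and 68.5 CPM in Snord67KO-2. Its log2 change was −0.59 ± 0.23 in the average of both clones (edgeR adjusted p = 0.105), and Snord67KO-2 lay wholly below 4T1 WT. The neighbouring unmarked positions 91018141 and 91018140 held 127 and 24 of the 386 counts of Celf1. They gave 57.9 and 17.2 of the 128 CPM in 4T1 WT replicate 2. Without these positions the CPM of 4T1 WT and Snord67KO-2 overlapped. Esrp1 had 40.0 to 54.3 CPM in 4T1 WT, 34.9 to 40.7 CPM in Snord67KO-1 and 32.9 to 57.0 CPM in Snord67KO-2, with a log2 change of −0.59 ± 0.25 in Snord67KO-1 (edgeR adjusted p = 0.109). Mbnl1 and Mbnl2, which drive splicing patterns of differentiated tissue, had log2 changes of −0.46 and 0.35 in Snord67KO-2 and of 0.06 and −0.08 in Snord67KO-1, the latter turning to 0.19 with library totals alone. Rbfox2 changed by 0.27 in Snord67KO-1 and by −0.56 in Snord67KO-2 without passing in either.

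The median log2 change of the 33 members was −0.02 in Snord67KO-1 and 0.19 in Snord67KO-2, where the median over all genes was −0.02 in both. Both comparisons share the 4T1 WT libraries. In Snord67KO-2 against Snord67KO-1 the median of the members was 0.35, beside −0.01 over all genes. A positive value was found in 26 of 33 members, beside 49.4% of all genes. When libraries were scaled by their totals alone it was found in 14 of 33, beside 23.6% of all genes. All 11 SR members were positive between the clones with TMM scaling, with a median of 0.40 and values from 0.10 to 0.79. With library totals alone 6 of 11 were positive, beside the same 23.6% of all genes. The median of the SR members was 0.02 in that case and 0.18 with counts in annotated exons alone, where all 11 were positive, beside 47.5% of all genes. It was 0.18 with 10 counts required in all 9 libraries, where 8 of 10 were, beside 49.7% of all genes. Scaling by library totals moved the median of all genes to 0.22 in Snord67KO-1, −0.15 in Snord67KO-2 and −0.38 between the clones. Relative to that shift, the median of the members between the clones was 0.36 higher than that of all genes, as with TMM. Scaling moves all genes of a comparison by about the same amount, so it could hardly change this offset. With counts in annotated exons alone the median of the members was 0.20 higher than that of all genes.

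**Figure D3:**
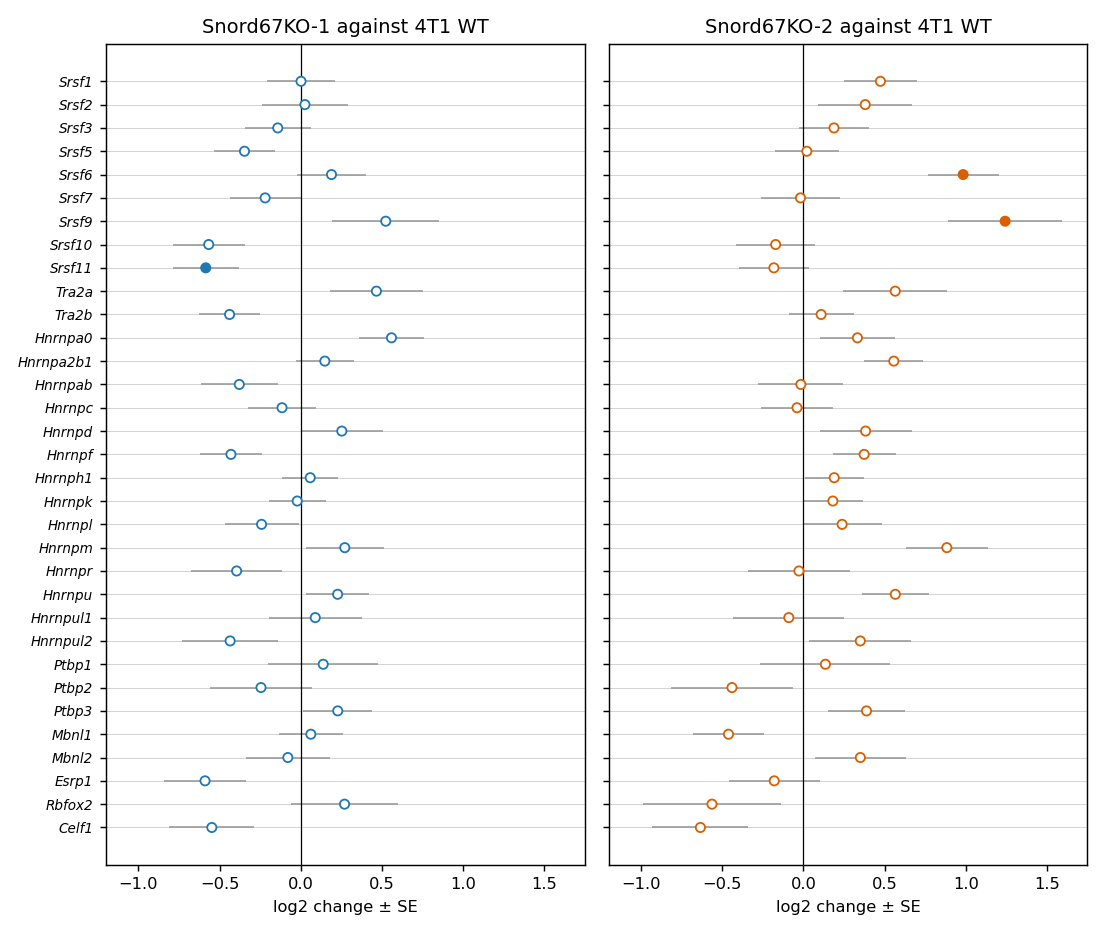
Log2 change against 4T1 WT (x axis, points with SE bars) of the 33 members tested, on the left in Snord67KO-1 and on the right in Snord67KO-2, with SR members at the top, hnRNP members in the middle and tissue-typical regulators at the bottom. Filled points passed the edgeR test (Srsf11 on the left, Srsf6 and Srsf9 on the right), and open points did not, with all values between −0.63 and 1.24.

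Other genes of the splicing pathway were followed through a list of 50, among them SR protein kinases, nuclear speckle proteins and FET proteins, of which 44 were tested. In Snord67KO-1, 2 of them rose and 9 fell, 25.0% of those tested, beside 11.5% of all genes higher and 8.66% lower. In the average of both clones 1 rose and 5 fell (13.6%), beside 6.61% and 5.41% of all genes. In Snord67KO-2 none was called by edgeR, beside 3.98% of all genes, and 10 (22.7%) had an unadjusted p under 0.05, beside 18.2%. By smallest p in Snord67KO-1, Son, a scaffold of nuclear speckles that is needed for weak splice sites, fell by 1.51 ± 0.18 on the log2 scale (edgeR adjusted p = 8.9e-06). In Snord67KO-2 the change of Son was −0.56 ± 0.18 (edgeR adjusted p = 0.0868). Snord67KO-2 was above Snord67KO-1 by 0.95 ± 0.19 (edgeR adjusted p = 0.00499). Son was the only 1 of the list called between the clones (2.27%), beside 2.84% of all genes higher and 3.55% lower. Rbfox3, a paralog of Rbfox2 known from neurons, had 3.13 to 6.40 CPM in 4T1 WT, 26.2 to 47.5 CPM in Snord67KO-1 and 8.14 to 18.8 CPM in Snord67KO-2. It was called as higher in Snord67KO-1 and was the gene that rose in the average. However, Rbfox3 reached the count minimum only through Snord67KO-1, with 9 counts in all of 4T1 WT, so its fold is not given. Rbm47, the other gene that rose in Snord67KO-1, had 83 counts and reached the minimum mainly through that clone. It had 3.13 to 13.6 CPM in 4T1 WT and 16.3 to 34.1 CPM in Snord67KO-1. The filter favours such rises, and none is read from these genes. Srrm2, the large protein at the core of speckles, fell by 0.73 ± 0.19 (edgeR adjusted p = 0.00994).

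The share of counts in introns was compared next. Intron counts can come from unspliced RNA or, as the counts carry no strand, from overlapping transcripts, and these were not separated. Counts were assigned to an intron only where no annotated transcript of the gene has an exon, so that annotated retained introns count as exon. The splicing regulators were mostly exonic. Introns took 4.55% to 9.16% of their counts in a library, against 54.5% to 65.2% of the counts over all annotated genes, tested or not. By gene, the median share in 4T1 WT was 4.85% among the tested members and 12.2% among the other tested genes. Within the set, the share was 5.01% for SR members, 6.17% for hnRNP members, and 3.85% to 25.7% by library for the tissue-typical regulators. Among the members with at least 200 counts, Mbnl2 had the highest share, 30.3% (Wilson 95% interval 25.1% to 36.0%). Srsf2, Srsf5 and Hnrnpa0 had no intron count. For Srsf5 the Wilson interval of 0 of 521 counts reached 0.73%, and for Hnrnpa0, which has no intron, the value is fixed by its structure. However, 123 of the 521 counts of Srsf5 and 64 of the 337 of Srsf2 lay only in exons of noncoding transcripts. Such exons, NMD transcripts aside, took 9.17% of the counts of SR members, beside the 5.01% in introns. These low intron shares therefore depend on the annotation and do not measure a lack of unspliced RNA.

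All libraries of Snord67KO-2 had a lower intron share over all members than all libraries of 4T1 WT. The shares were 8.06%, 8.60% and 9.16% in 4T1 WT, 9.08%, 6.11% and 6.32% in Snord67KO-1, and 5.12%, 4.55% and 5.48% in Snord67KO-2. The same share over all genes was 54.5% to 65.2% in 4T1 WT and 57.0% to 61.2% in Snord67KO-2, where the ranges overlapped. The ranges also overlapped for SR members alone, with 4.81% to 6.18% in 4T1 WT and 3.71% to 4.92% in Snord67KO-2. By gene, 22 of 33 members had a lower share in the pooled counts of Snord67KO-2 than in 4T1 WT and 8 had a higher one. Of 5360 other genes, 57.8% were lower and 33.9% were higher. In Snord67KO-1, 19 of 33 members were lower, whereas 33.6% of other genes were lower and 61.6% were higher. Hnrnpm moved from 22.8% in 4T1 WT to 13.2% in Snord67KO-1 and 7.61% in Snord67KO-2, Tra2a from 29.6% to 20.9% and 7.69%, and Hnrnpr from 17.5% to 9.20% and 0%. In the other direction, Srsf9 moved from 0% to 3.85% and 5.26% and Ptbp3 from 2.11% to 9.68% and 3.23%, while Ptbp2 went from 54.7% to 41.1% and 60.7%. These members were picked after their values were seen.

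**Figure D4:**
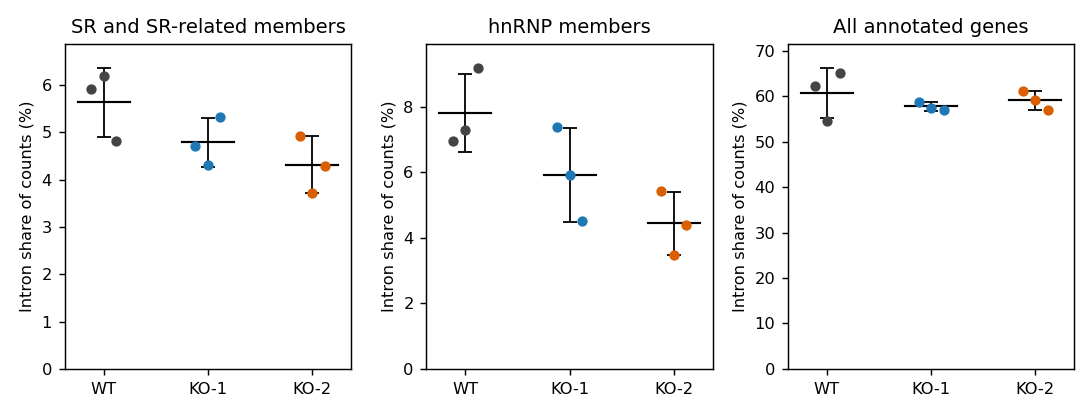
Share of unmarked counts in introns (y axis, percent) in the 3 libraries of each genotype for SR members (left), hnRNP members (middle) and all annotated genes (right), with points for libraries, lines for means, bars for SD and vertical scales that differ. The hnRNP points of Snord67KO-2, from 3.49% to 5.44%, all lie below those of 4T1 WT, from 6.96% to 9.18%, whereas the SR points overlap.

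A test by gene could reach few members. With a minimum of 10 intron counts and 10 exon counts in 3 libraries, 337 genes were tested, 4 of them members (Mbnl1, Mbnl2, Ptbp2 and Rbfox2), and none of these was called by edgeR in any comparison. Over all 337 genes, 1.78% were called in the average (0.593% higher, 1.19% lower), 2.67% in Snord67KO-1 (1.48% higher, 1.19% lower) and 0.0% in Snord67KO-2. At an unadjusted p under 0.05, 1, 0 and 1 members passed beside 19.6%, 21.7% and 16.3% of all genes, and DESeq2 was not run on this interaction. Mbnl2 had 55.6, 42.3 and 52.8 CPM in 4T1 WT, 78.7, 44.7 and 48.1 CPM in Snord67KO-1, and 80.0, 43.4 and 70.9 CPM in Snord67KO-2, and the genotypes overlapped. Its intron share was 35.6% for 4T1 WT and 34.3% for Snord67KO-1, while Snord67KO-2 had 14.5%. Its log2 change of introns relative to exons was −1.69 ± 0.55 in Snord67KO-2 (unadjusted p = 0.00498, edgeR adjusted p = 0.153), where the median over all 337 genes was −0.28. With a minimum of 5 counts, Hnrnpm had −1.83 (adjusted p = 0.263) and Tra2a had −2.32 (adjusted p = 0.220) in Snord67KO-2.

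Exon sequence annotated in NMD transcripts alone took 3.47% of the counts of SR members. Srsf1, Srsf2 and Srsf10 have 0 bases of this kind in the annotation, and 64 counts of Srsf2 lay in exons of other noncoding transcripts. In 4T1 WT this was 86 counts (5.40%), while the clones had 38 counts (2.42%, Snord67KO-1) and 18 counts (1.94%, Snord67KO-2), given without a test. In hnRNP members it was 5 counts in all. Srsf7 held 83 of the counts on 462 bases. Srsf3 and Tra2b held 18 each, on 526 and 511 bases, and those of Tra2b fell to 4T1 WT (14) and Snord67KO-2 (4), with 0 in Snord67KO-1. Of the 83 counts in Srsf7, 49 ended at 1 position (chromosome 17, 80205023, minus strand). This position had 10, 22 and 7 counts in 4T1 WT, 3, 4 and 0 in Snord67KO-1, and 1, 0 and 2 in Snord67KO-2, so that 4T1 WT replicate 2 alone gave 22 of the 49.

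Single positions are where a methylated nucleotide would show. Of 11275 member positions with a count, 6 reached 10 counts in 3 libraries, and 5 of them are marked as mispriming in the table. The sequence around each of them is given from GENCODE M21 transcripts, 5′ to 3′ on the strand of the gene, since it shows what the strongest ends share. The counted position is the last lower-case letter before the capitals, and the 6 capitals are the bases that follow it.
Hnrnph1, 3′ UTR, chromosome 11, 50386315, plus strand, 378 counts, marked: aatttatttgataacCTGTAAggcacgtg
Srsf3, 3′ UTR, chromosome 17, 29041796, plus strand, 133 counts, marked: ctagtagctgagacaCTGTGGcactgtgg
Celf1, 3′ UTR, chromosome 2, 91018141, plus strand, 127 counts, not marked: acttaccctcttctcTTGTAGcaccatcc
Srsf10, coding sequence, chromosome 4, 135863850, plus strand, 118 counts, marked: catctcacaccaaaaCTAGAGgcacctct
Ptbp3, 3′ UTR, chromosome 4, 59475581, minus strand, 104 counts, marked: taactcagtgtgcacCTGTAGgcctctct
Hnrnpul2, coding sequence, chromosome 19, 8825309, plus strand, 91 counts, marked: ggatctggaaagaccCAGTGGgcactgaa
The position in the NMD exon of Srsf7 and the strongest unmarked position of Hnrnpk (3′ UTR, chromosome 13, 58392269, minus strand, 44 counts) are shown for comparison.
Srsf7: ccttatgatatcatgCTGAGGcgccttgc
Hnrnpk: gtagtgaaatctttgCTGTTCaccagatg

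The capitals resemble each other. Over the 31464 marked exon positions of all genes, the most frequent base at each of the 6 places spelled ctgtag, with 98.2% of positions holding the first base and 62.0% to 89.7% the others. A match of at least 4 of these 6 bases was found at 226 of 227 marked member positions with sequence. It was found at 383 of 10033 unmarked member positions (3.82%), which had 2.19 counts each against 1.21 at the other unmarked positions. Of the 16 unmarked member positions with 10 or more counts over all libraries, 12 had such a match, those of Celf1, Srsf7 and Hnrnpk included. The linker that the paper lists for ligation to fragment 3′ ends begins with the same 6 bases, ctgtag. A match is a description of the letters on the transcript and was used in no test. Its part in the counts was not tested.

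At these 6 positions no difference between genotypes was called. The Celf1 position gave 16.3, 57.9 and 20.8 CPM in 4T1 WT, 26.7, 50.8 and 4.37 CPM in Snord67KO-1, and 14.1, 19.0 and 21.3 CPM in Snord67KO-2, and it made up 32.1% of all counts of the gene. All 3 genotypes overlapped, and its log2 change in the average was −0.09 ± 0.60 (edgeR adjusted p = 0.970). The Hnrnph1 position gave 28.5, 265 and 48.0 CPM, then 116, 99.6 and 16.0 CPM, then 0, 13.6 and 35.4 CPM in the same order. The Srsf3 position, with 31.2, 136 and 1.60 CPM in 4T1 WT and at most 22.4 CPM in any library of the clones, had a log2 change of −2.48 ± 0.88 in the average (edgeR adjusted p = 0.463). At Hnrnpul2 all 4T1 WT libraries (21.7, 47.0 and 22.4 CPM) lay above those of both clones (at most 19.3 and 21.3 CPM), and at Ptbp3 they lay above those of Snord67KO-2 (at most 5.42 CPM). The Hnrnpul2 position reached the count minimum only through 4T1 WT (16, 30 and 14 counts). No Snord67KO-2 library had 10 counts at Hnrnpul2 or Ptbp3. The filter therefore favours this order, and no difference is read from it. An unadjusted edgeR p below 0.05 was reached by 2 (Srsf3 and Ptbp3), 0 and 1 (Srsf3) of the 6 in the average, Snord67KO-1 and Snord67KO-2, beside 10.2%, 3.49% and 12.4% of all 2092 positions tested, and by 0 between the clones, beside 2.53%. DESeq2 called none, with 1, 0 and 3 below 0.05 unadjusted against 4T1 WT. By edgeR, 0.0478% of all positions were called in each comparison against 4T1 WT. 4T1 WT replicate 2 was the highest of the 9 libraries at all 6 positions. It gave 29.1% to 65.4% of their counts while holding 13.2% of the counts of all libraries. Without it, 4 of the 6 still passed the count minimum, and none of these was called or had an unadjusted p below 0.05 against 4T1 WT.

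**Figure D5:**
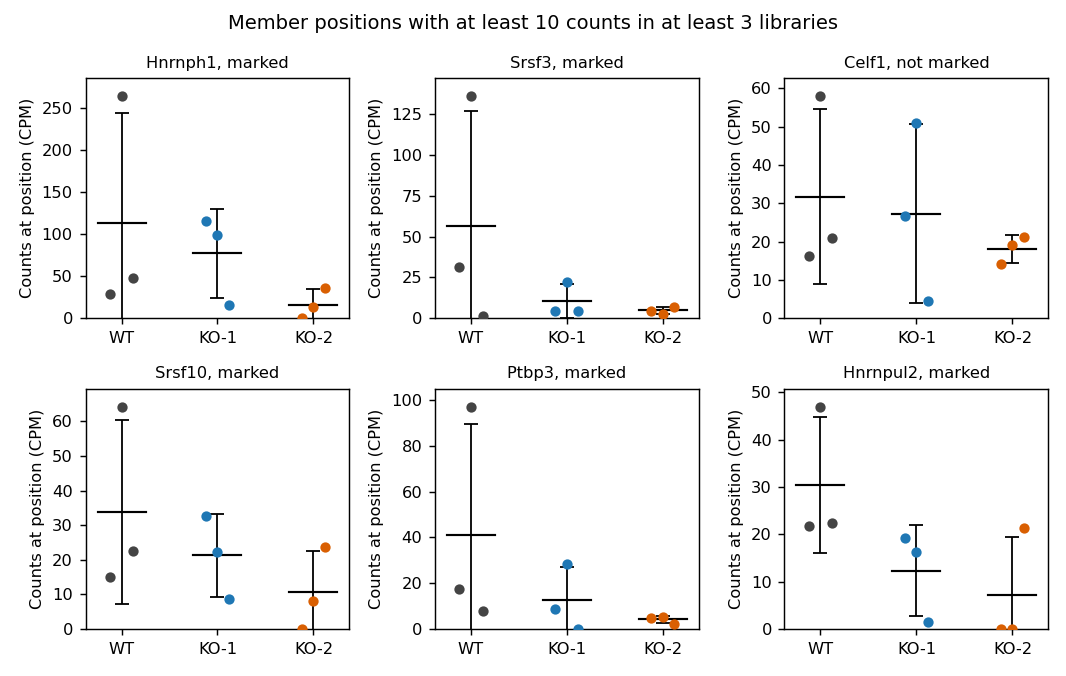
Counts at the 6 member positions that reached 10 counts in 3 libraries (y axis, CPM), as points for the 3 libraries of each genotype with the mean (line) and SD (bar, cut at 0). In every panel the highest point is 4T1 WT replicate 2, from 47.0 CPM at Hnrnpul2 to 265 CPM at Hnrnph1. At Hnrnpul2 the other 4T1 WT libraries also lie above both clones (KO-1 and KO-2 on the axis), but that position reached the minimum only through 4T1 WT.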

How the data were processed

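RibOxi-seq was run on 4T1 WT, Snord67KO-1 and Snord67KO-2 cells, with 9 oxidized libraries of the 18 samples used here. According to the methods and the labels, the authors trimmed reads with cutadapt, merged pairs, mapped them (the labels name STAR and mm10) and counted read 3′ ends. The counts deposited by the authors are whole numbers per genomic position without normalization, with a gene name and a mispriming column that is not defined in the sources used here. Handling of multiply mapped reads and PCR copies is not given there, and the intervals therefore reflect counting error alone.

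Genes, exons and transcript sequences came from GENCODE M21 on GRCm38, since 98.6% of positions whose gene name it holds lay inside that gene, although the paper names m39 for its index. Gene totals were summed over positions not marked mispriming, and CPM are counts per 1000000 counts of the library. Gene totals, positions, and the interaction of intron or exon with genotype (library as block) were tested with edgeR's quasi-likelihood test. TMM scaling was used for gene totals and positions. The interaction used the sum of intron and exon counts as library size, without TMM. Benjamini-Hochberg adjustment was over all features, with a threshold of 0.05. Each fit held all 9 libraries, with a minimum of 10 counts in 3 libraries. The SE is the log2 change divided by the square root of F. The tests were tested on simulated data. Replicates differed beyond sampling noise in every pair (chi-square per degree of freedom from 1.16 to 8.03).

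The members and lists were chosen with earlier results of these data known. The naming rule took members past the threshold, the 3 smallest p against 4T1 WT per contrast, the 5 highest exon densities, the highest and lowest intron shares among members with at least 200 counts, and members of the intron and position tests. Other members named were chosen after their values were seen. Names were matched as the table spells them. Alternatives covered scaling, DESeq2, count filters, marked positions, exons alone, Rn45s, a replicate block and each library left out. Tests ran in R 4.3.3 with edgeR 4.0.16 and DESeq2 1.42.0, and tables were made with pandas 2.3.3 in Python 3.11.15, with plots by matplotlib 3.10.9.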

Additional observations from a re-analysis of the deposited data

Results flagged for a closer look

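Both members called between the clones, Srsf6 and Hnrnpf, showed changes against 4T1 WT that differed between the clones by the test of the difference itself. For Hnrnpf the difference of Snord67KO-2 from Snord67KO-1 was 0.80 on the log2 scale, with a change of −0.43 in Snord67KO-1 and 0.37 in Snord67KO-2, neither of which passed. For Srsf6 it was 0.79, with 0.19 in Snord67KO-1 and 0.98 in Snord67KO-2, of which the latter passed. Both clones share the 4T1 WT libraries, and each clone derives from a single cell, so that clone and deletion cannot be told apart.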

How the results depend on the processing

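The counts of members called by gene total were 1 in the average of both clones, 1 in Snord67KO-1, 2 in Snord67KO-2 and 2 between the clones. In the average the count became 0 with library totals alone and with DESeq2, 2 with 10 counts in all 9 libraries, 3 with annotated exons alone, 3 without positions of 10 or more counts in any library, and 2 with Hnrnpa1 and Hnrnpa3 taken by locus. In Snord67KO-1 it became 0 with DESeq2, 2 with 10 counts in all 9 libraries, 2 with marked positions included, 4 without positions of 10 or more counts and 2 by locus. In Snord67KO-2 it became 1 with RLE size factors or 10 counts in all 9 libraries, 0 with library totals, DESeq2 or no count filter, and 4 without positions of 10 or more counts. Between the clones it became 1 with library totals (Mbnl1, lower) or no count filter, and 0 with DESeq2, marked positions included or annotated exons alone. A count that stayed at 1 was not always of the same member: in the average it was Celf1, lower, without a count filter and Srsf9 with marked positions included, and in Snord67KO-1 it was Hnrnpa0, higher, with library totals or annotated exons alone. Likewise a count of 2 was Hnrnpm and Srsf6 in Snord67KO-2 with annotated exons alone, and Hnrnpf and Mbnl1 (lower) between the clones with 10 counts in all 9 libraries. The locus reading and the removal of high positions were chosen after seeing the data. With 1 library left out, the counts ranged from 0 to 2, from 0 to 2, from 0 to 3 and from 0 to 2. No intron or position call was gained or lost in members under any alternative run. Over the alternatives, the log2 change of Srsf6 in Snord67KO-2 ranged from 0.79 to 1.19 and passed in 15 of 20. Small changes turned in sign, none passing. In Snord67KO-1 these were Hnrnph1 (−0.053 without a count filter, −0.078 with marked positions), Mbnl1 (−0.044 without a count filter) and Mbnl2 (0.19 with library totals, 0.10 with annotated exons alone), and in Snord67KO-2 Hnrnph1 (−0.27 with marked positions). With 1 library left out, Hnrnph1 in Snord67KO-1 ranged from −0.0092 to 0.17, Mbnl1 from −0.050 to 0.24, Mbnl2 from −0.31 to 0.11 and Rbfox2 from −0.013 to 0.54. The other gene-total changes recomputed kept their sign.

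Over all genes, 691, 1159, 229 and 367 were called in the 4 comparisons, against 313, 571, 110 and 128 with DESeq2, where 2118 genes had no adjusted p in Snord67KO-2. With library totals alone 442 were called in the average and 101 in Snord67KO-2, and with 10 counts in all 9 libraries, where 1282 genes were tested, 355, 405, 151 and 117 were called. Without a count filter 1858 were called in Snord67KO-1 and 564 between the clones, and between the clones 242 with marked positions and 130 with annotated exons. Without positions of 10 or more counts 381 were called in Snord67KO-2 and 594 between the clones. For positions DESeq2 called 14, 13 and 24 against 4T1 WT where edgeR called 1 each, and for intron shares a minimum of 5 counts called 15, 31 and 1 of 1459 genes where 6, 9 and 0 of 337 were called, with 10, 14 and 3 when marked positions were included and 11 in the average for introns outside exons of any gene. Library totals alone gave Srsf6 in Snord67KO-2 an adjusted p of 0.0883, Srsf9 0.119, Srsf11 in Snord67KO-1 0.311 and Hnrnpf between the clones 0.264. Hnrnpf also lost its call with DESeq2 (0.0883), marked positions (0.0549) and annotated exons (0.0715). The cause was not tested. Pairing of replicates with the same number was not clear. For these pairs r of their deviations ranged from −0.12 to 0.22, with 2 of 9 over 0.1, and for pairs with other numbers from −0.25 to 0.12. The 2 pairs over 0.1 joined 4T1 WT with Snord67KO-1, at replicate 2 (0.22) and replicate 3 (0.18). With the replicate number as a block, 1 member was called in Snord67KO-2 (Srsf6, without Srsf9, adjusted p = 0.0628) and the other 3 counts were 1, 1 and 2.

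Depth limits what single positions can show, since 85.8% of unmarked member positions with a count had 1 count. The biological coefficient of variation was 0.53 for positions and 0.18 for gene totals.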
